A study of Mus musculus and Homo sapiens with 59 samples.

Results

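Rcan1, Gem, Rgs2, Rgs16, Sik1, Crem, Nfatc1 and Nfil3 are genes known to be switched by calcium or cyclic AMP signals, and most of their products act back on those signals. They were chosen with earlier results of these data known. All were taken by gene symbol, as 8 of the 19407 rows of the mouse table and, in capitals, as 8 of the 22192 rows of the human table. Levels are TPM (a share of all transcripts, scaled by transcript length), and their change was followed in every treatment and between calcium-free and complete medium.

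The libraries came from an experiment in which the plasma membrane of cultured cells was opened either with a detergent or with a protein that forms pores. Polyadenylated RNA was measured in 59 libraries of 30 groups: 35 of NIH3T3 (mouse fibroblasts), 16 of LLC (mouse Lewis lung carcinoma), 4 of HT29 (human colorectal carcinoma) and 4 of BxPC3 (human pancreatic carcinoma). Each treatment had its own untreated libraries. All groups held 2 libraries except siPKC cells given AP20187, which held 1.

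The MLKL cells carry hMLKL1–181-2Fv, a piece of human MLKL, the pore protein of necroptosis, on a domain that the dimerizer AP20187 draws together. They were given AP20187 at 100 nM for 1 h or left untreated, in NIH3T3 cells in calcium-free DMEM and in complete DMEM, and in LLC cells in DMEM. NIH3T3 MLKL cells were also given AP20187, or left untreated, with siPKC against siCTR (siRNA names in the titles) and as p65ko against noko (p65 is the NF-kB subunit encoded by Rela). The GSDMD cells carry mGSDMD1-276-HBD, a piece of mouse GSDMD, the pore protein of pyroptosis, on a hormone-binding domain, and were given 4OHT at 50 nM for 2.5 h or left untreated, in both mouse lines. Parental cells without a construct were given AP20187 (NIH3T3) or 4OHT (LLC) under the same conditions. Digitonin, a detergent that binds cholesterol, was given to cells without a construct at 55 µg/mL for 3 h in both mouse lines and at 40 µg/mL for 2 h in both human lines. Apart from the calcium-free libraries, all cells are listed in DMEM. The pores are overexpressed fragments in cell lines, and the labels do not say whether a line is 1 clone or whether replicates were separate cultures, so the p-values below measure only the spread between these libraries, which may be technical.

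When calcium enters a cell it binds calmodulin, which activates the phosphatase calcineurin and a set of kinases. Calcineurin dephosphorylates NFAT factors, which then enter the nucleus, while calcium-dependent kinases and cyclic AMP activate the factor CREB and its CRTC partners, which bind the CRE sequence. Several targets of these factors are brakes: Rcan1 protein inhibits calcineurin, Sik1 keeps CRTC proteins out of the nucleus, Crem also encodes the CREB antagonist ICER, Gem limits voltage-gated calcium channels, and Rgs2 and Rgs16 speed the shut-off of G proteins.

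Promoter sequence was available for 4 of the 8 genes, and 5 windows are shown because Rcan1 has starts 66091 bases apart. Each window covers 200 bases, from base -250 to base -51 before the RefSeq transcription start (GRCm38.p6), and runs 5′ to 3′ on the gene's strand. Capitals mark the CRE (TGACGTCA), its short form (TGACG), the NFAT core (GGAAA) and the AP-1 site (TGANTCA), read on either strand, with the short CRE form also lying inside each full CRE. The windows lie at chr16:92400129-92400328 on the minus strand (Rcan1, internal start), chr16:92466220-92466419 on the minus strand (Rcan1, upstream start), chr1:144004200-144004399 on the minus strand (Rgs2), chr1:153740103-153740302 on the plus strand (Rgs16) and chr13:52981090-52981289 on the minus strand (Nfil3).
Rcan1 internal: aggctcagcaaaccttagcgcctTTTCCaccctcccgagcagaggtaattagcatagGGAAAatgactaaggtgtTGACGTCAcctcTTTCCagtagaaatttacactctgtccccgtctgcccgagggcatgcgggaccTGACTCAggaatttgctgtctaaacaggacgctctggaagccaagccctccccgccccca
Rcan1 upstream: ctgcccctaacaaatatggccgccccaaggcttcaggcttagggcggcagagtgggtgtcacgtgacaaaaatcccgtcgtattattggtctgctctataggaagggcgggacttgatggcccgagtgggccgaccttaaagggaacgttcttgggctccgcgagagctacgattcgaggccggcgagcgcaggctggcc
Rgs2: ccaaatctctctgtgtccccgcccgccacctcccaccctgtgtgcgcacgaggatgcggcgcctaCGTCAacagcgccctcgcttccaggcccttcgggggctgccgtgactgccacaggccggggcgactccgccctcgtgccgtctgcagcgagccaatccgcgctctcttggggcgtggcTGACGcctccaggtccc
Rgs16: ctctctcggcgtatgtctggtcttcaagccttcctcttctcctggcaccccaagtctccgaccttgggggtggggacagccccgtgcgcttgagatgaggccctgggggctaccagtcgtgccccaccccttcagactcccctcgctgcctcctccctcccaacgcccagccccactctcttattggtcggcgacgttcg
Nfil3: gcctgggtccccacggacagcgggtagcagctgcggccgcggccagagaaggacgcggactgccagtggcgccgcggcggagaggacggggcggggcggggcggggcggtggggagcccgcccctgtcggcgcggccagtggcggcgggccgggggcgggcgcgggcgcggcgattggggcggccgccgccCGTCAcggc

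The internal Rcan1 window held a full CRE at -175 to -168, NFAT cores that begin at -227, -193 and -163, and an AP-1 site at -110, while the upstream window held none of these letters. A full CRE was found in 0.828% of 32851 mouse promoter windows of the same length, the short form in 12.7%, the NFAT core in 48.5% and the AP-1 site in 5.57%. The Rgs2 window held the short form at -185 and at -67, the Nfil3 window held it at -59, and the Rgs16 window held none of them. These matches describe the letters only. The TPM are summed per gene, so RNA from the starts of Rcan1 cannot be told apart.

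**Figure D1:**
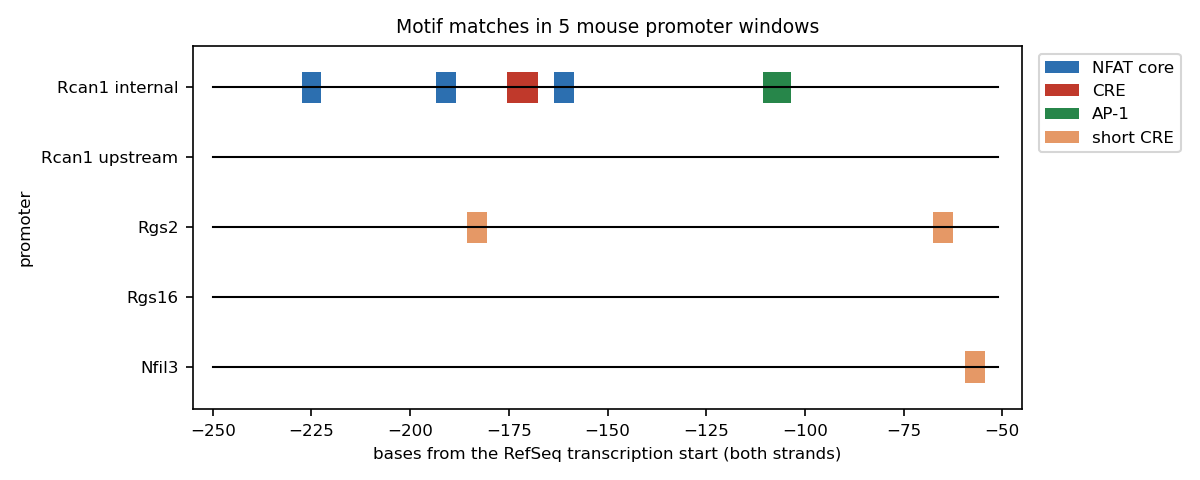
Motif matches in the 5 mouse promoter windows, by distance in bases from the RefSeq transcription start. The internal Rcan1 window holds the full CRE at -175, 3 NFAT cores and the AP-1 site, and the Rcan1 upstream and Rgs16 windows hold none.

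In 13 of the 15 treatments the libraries of a group were alike, with a correlation of log2 levels across genes between 0.989 and 0.995. The LLC MLKL and siPKC libraries were not included. In untreated cells Rela was lower in p65ko than in noko (log2 fold change -1.77, limma, Benjamini-Hochberg adjusted p = 1.68e-15), and Prkca, a protein kinase C gene, was lower with siPKC than with siCTR (-1.91, adjusted p = 4e-19), while among other protein kinase C genes Prkcd (0.59) and Prkce (0.25) were higher and Prkci (-0.40) lower. All 8 fibroblast markers were detected in NIH3T3, and all 7 epithelial markers in HT29 and in BxPC3. In LLC 3 of 6 epithelial markers reached 1 TPM, Esrp1 was at 0 throughout, and the epithelial markers summed to 291 to 543 TPM. Of 8 fibroblast markers 5 reached 1 TPM in LLC, Thy1 was at 0 throughout, and they summed to 9047 to 11330 TPM. Macrophage markers summed to 19.6 to 97.8 TPM in treated and 19.6 to 40.7 TPM in untreated NIH3T3 cells, and to 21.8 to 67.9 TPM in treated and 12.1 to 26.4 TPM in untreated LLC cells, with Adgre1 at 0 in LLC; their part in the results was not tested. In BxPC3 the fibroblast markers summed to 215 to 220 TPM with digitonin and 48.8 to 49.7 TPM without, with COL1A2 and PDGFRB at 0, and their part was not tested either. In bulk RNA, fewer cells expressing a gene and less RNA per cell cannot be told apart.

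In MLKL cells given AP20187 most of these genes rose in complete medium, and the responses of 5 of them were lower without calcium. In complete medium 7 of 8 passed the test (adjusted p under 0.05), 5 higher and 2 lower, against 32.2% of all tested genes (15.8% higher, 16.5% lower). In calcium-free medium 3 of 8 passed, Rgs16 higher and Sik1 and Nfil3 lower, against 5.81% of all genes (2.35% higher and 3.46% lower, or 2.13% and 5.12% after centring each library on its median). With only the libraries of that comparison in the fit, 1 of the 3 passed. The median log2 fold change of the 8 genes was 0.45 in complete medium, where all tested genes had a median of -0.02, and -0.15 in calcium-free medium, where all tested genes had a median of 0.02.

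Rcan1, the inhibitor of calcineurin, rose in complete medium and not in calcium-free medium. In calcium-free medium it stood at 18.5 and 17.8 TPM with AP20187, against 18.9 and 17.3 TPM untreated, and the groups overlapped. In complete medium it stood at 263 and 258 TPM with AP20187, against 20.4 and 21.7 TPM untreated, a ratio of means of 12.4. The log2 fold change was 3.57 ± 0.057 (SE) in complete medium (limma, Benjamini-Hochberg adjusted p = 1.51e-21), the 15th largest rise among all genes tested there. It was 0.00 in calcium-free medium (adjusted p = 0.988). The response was 3.57 ± 0.081 lower without calcium on the log2 scale (limma, adjusted p = 1.54e-18).

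Rgs16, which accelerates GTP hydrolysis on G protein alpha subunits, behaved alike but kept a small rise without calcium. It stood at 65.9 and 64.7 TPM with AP20187 in calcium-free medium, against 50.5 and 50.3 TPM untreated. In complete medium it stood at 709 and 702 TPM with AP20187, against 37.5 and 36.7 TPM untreated, a ratio of means of 19.0 and the 8th largest log2 rise. Treated libraries lay above untreated ones in both media. The log2 fold changes were 0.37 without calcium (limma, adjusted p = 9.41e-07) and 4.21 with it (adjusted p = 5.85e-26), and their difference was -3.84 ± 0.050 (adjusted p = 1.99e-22).

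The transcription factors Nfil3 and Crem and the GTPase Gem rose less, and their responses too were lower without calcium. Nfil3, a leucine zipper repressor, stood at 6.91 and 6.17 TPM with AP20187 in calcium-free medium, against 9.54 and 8.61 TPM untreated. In complete medium Nfil3 stood at 33.5 and 34.9 TPM with AP20187, against 19.2 and 19.1 TPM untreated. So its treated libraries were all below the untreated ones without calcium and all above them with calcium, with log2 fold changes of -0.42 and 0.80 that differed by -1.22 ± 0.080 (limma, adjusted p = 1.92e-10). Gem had 8.09 and 9.20 TPM with AP20187 in calcium-free medium, against 10.4 and 8.94 TPM untreated, which overlap. In complete medium Gem had 15.1 and 16.4 TPM with AP20187, against 9.42 and 11.1 TPM untreated. The difference of its responses was -0.72 ± 0.19 (limma, adjusted p = 0.0103); it was -0.61 (adjusted p = 0.0583) without untreated replicate 1 in complete medium and -0.63 (adjusted p = 0.0543) without untreated replicate 1 in calcium-free medium. Crem, a CREB relative, had 3.58 and 3.61 TPM with AP20187 in calcium-free medium, against 4.53 and 4.06 TPM untreated. In complete medium Crem had 7.07 and 6.97 TPM with AP20187, against 5.48 and 5.39 TPM untreated, and its responses differed by -0.52 ± 0.11 (limma, adjusted p = 0.0012).

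The other three genes did not rise in either medium. Rgs2, a brake on Gq signalling, had 18.8 and 17.6 TPM with AP20187 in calcium-free medium, against 18.4 and 17.1 TPM untreated. In complete medium it had 61.9 and 59.2 TPM with AP20187, against 72.0 and 66.2 TPM untreated, a fall of small size (log2 fold change -0.19, limma, adjusted p = 0.0219) that gave -0.13 (adjusted p = 0.226) without untreated replicate 1 and -0.15 (adjusted p = 0.134) without AP20187 replicate 2. Sik1, the kinase that restrains CRTC, had 8.11 and 8.0 TPM with AP20187 in calcium-free medium, against 10.8 and 9.59 TPM untreated, and fell by 0.30 on the log2 scale (limma, adjusted p = 0.00317), or by 0.23 (adjusted p = 0.0923) without untreated replicate 1. In complete medium Sik1 had 14.5 and 15.6 TPM with AP20187, against 17.0 and 16.9 TPM untreated (-0.16, limma, adjusted p = 0.041); it passed in 1 of the 4 fits that leave out a library, with adjusted p = 0.142, 0.117 and 0.276 without untreated replicate 1, untreated replicate 2 and AP20187 replicate 1. Nfatc1, an NFAT factor, had 1.58 and 1.53 TPM with AP20187 in calcium-free medium, against 1.97 and 1.71 TPM untreated, and in complete medium 2.47 and 2.40 TPM with AP20187, against 2.45 and 2.57 TPM untreated. Neither change of Nfatc1 passed the test (limma, adjusted p = 0.489 and 0.864).

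For the difference of responses, calcium-free minus complete medium, 5 of 8 passed, all lower, against 21.9% of all genes (11.1% lower). Rgs2 (0.22, limma, adjusted p = 0.0663, or 0.28 and 0.0406 without untreated replicate 2 in complete medium), Sik1 (-0.14, adjusted p = 0.249) and Nfatc1 (-0.12, adjusted p = 0.632) did not pass.

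**Figure D2:**
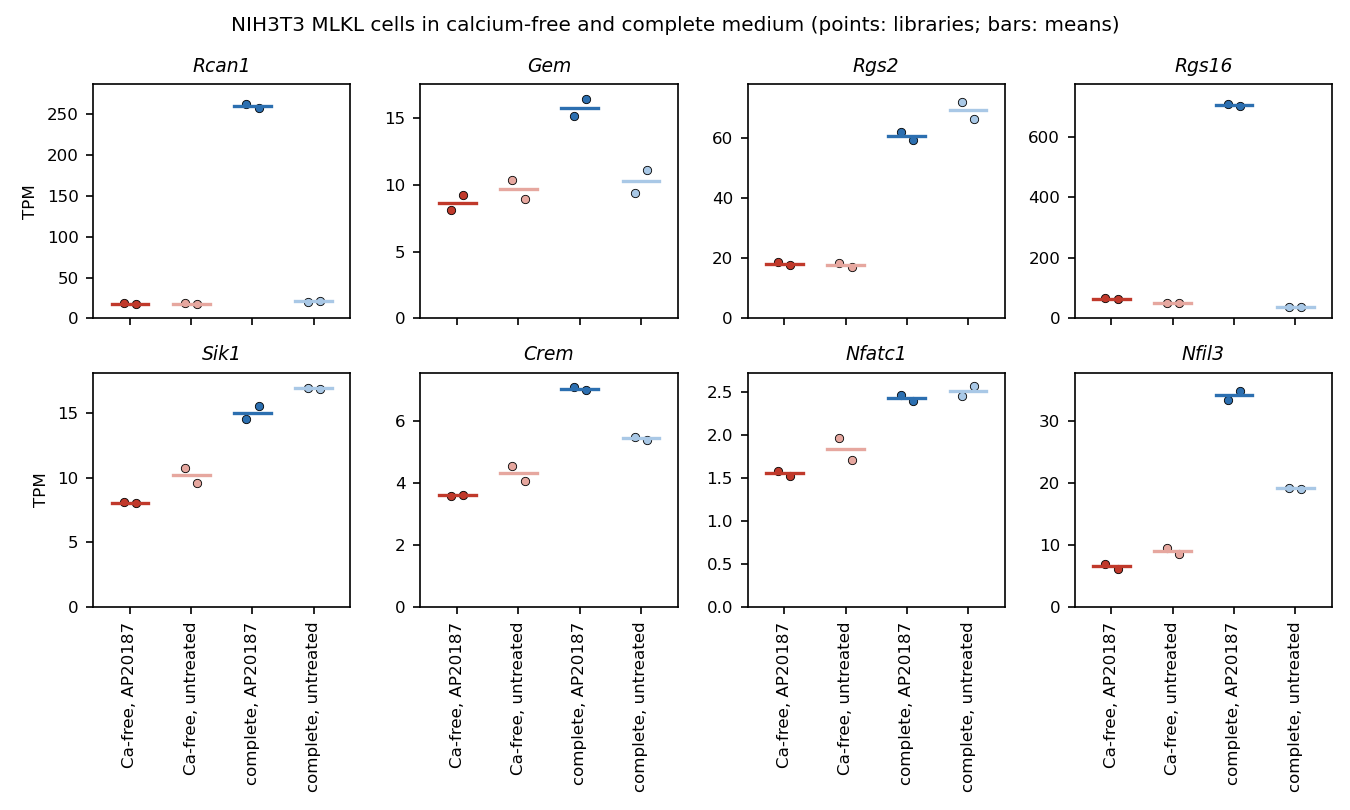
TPM of the 8 genes (y axis, linear from 0) in NIH3T3 MLKL cells in calcium-free and complete medium, with AP20187 or untreated; points are libraries and bars are means. Rcan1 is at 263 and 258 TPM only in complete medium with AP20187, and Rgs2 is below 20 TPM in all 4 calcium-free libraries.

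Several of these genes also differed between calcium-free and complete medium in MLKL cells without AP20187. No parental cells in calcium-free medium were measured, so the part of the construct in this was not tested. In untreated MLKL cells 7 of 8 passed, Rgs16 higher and 6 lower, against 36.5% of all genes (8.62% higher and 27.8% lower, or 23.4% and 15.1% after median centring). Rgs2 averaged 17.7 ± 0.90 TPM without calcium and 69.1 ± 4.1 TPM with it (SD, n = 2 each), a log2 fold change of -1.90 ± 0.060 (limma, adjusted p = 1.33e-15). Nfil3 averaged 9.07 ± 0.65 TPM without calcium and 19.2 ± 0.073 TPM with it, and Sik1 10.2 ± 0.82 TPM without and 16.9 ± 0.071 TPM with it. Rgs16 went the other way, with 50.4 ± 0.16 TPM without calcium and 37.1 ± 0.53 TPM with it (0.43, limma, adjusted p = 5.85e-09). The falls of Rcan1 (-0.21), Crem (-0.28) and Nfatc1 (-0.31) were small: 4 of 8 genes (Rgs2, Nfil3, Sik1 and Rgs16) passed after median centring, after quantile normalization, with only these libraries in the fit and without calcium-free untreated replicate 2. Nfatc1 also lost its call without complete-medium untreated replicate 1 (limma, adjusted p = 0.0752) or 2 (0.134), and Rcan1 without replicate 2 (0.0903). With AP20187 all 8 were lower without calcium than with it, against 38.6% of all genes in either direction (27.4% lower, or 17.8% after median centring).

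Other genes of the pathway, and its further targets, were described in the same libraries. Of 20 further target genes of CREB or NFAT (list chosen with earlier results known), 19 were tested in MLKL cells in complete medium, and 15 were higher and 3 lower, with a median log2 fold change of 1.56. The largest changes were Fos (44.8 TPM with AP20187 and 0.755 TPM untreated, log2 fold change 4.71, kept by the filter only through the treated libraries), Cyr61 (4.64), the cytokine gene Lif (4.34) and Ptgs2, which encodes the prostaglandin enzyme COX (1354 TPM with AP20187 and 80.5 TPM untreated, 4.06). Il6, also counted as higher (4.86 TPM with AP20187 and 0.727 TPM untreated), had an untreated mean under 1 TPM too. The difference of responses, calcium-free minus complete, was lower in 15 of the 19 and higher in 3, with a median of -1.79. The 3 were Pde4b, Pde4d and Gadd45b, named after their values were seen. Over all genes 11.1% were lower and 10.8% higher. In calcium-free medium 17 were tested, and 5 were higher (Fos, Ptgs2, Sgk1, Cyr61 and Lif) and 3 lower (Nr4a1, Nr4a2 and Gadd45b). There 2.35% of all genes were higher and 3.46% lower. In untreated cells 6 of 18 were higher without calcium and 9 lower, against 8.62% and 27.8% of all genes. A gene kept by the filter only through complete-medium AP20187 libraries could pass only as lower in the difference, so these counts are description only. Of 15 tested genes of the calcineurin and NFAT machinery, 3 were higher and 3 lower in complete medium. Among those that passed, Nfat5 (0.49), Calm3 (-0.26), Rcan3 (-0.24) and Dyrk1a (0.16) changed most. Of 15 CREB pathway genes, 4 were higher and 2 lower, the largest being the coactivators Ep300 (0.47) and Crebbp (0.39). Of 17 tested relatives of the 8 genes, 3 were higher and 5 lower, and Rgs3 (24.5 TPM with AP20187 and 12.5 TPM untreated, 0.91) and Dbp (4.31 TPM with AP20187 and 8.82 TPM untreated, -0.88) changed most. The genes named passed limma's test with Benjamini-Hochberg adjustment; in complete medium 15.8% of all genes passed as higher and 16.5% as lower. The lists share genes: Atf1, Nfat5 and Rcan3, for example, count both among the relatives and in a pathway list, here and in the human lines. The lists were not tested against each other.

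Parental cells served as the controls of the drugs, AP20187 in NIH3T3 and 4OHT in LLC. No parental NIH3T3 cells were given 4OHT and no parental LLC cells AP20187. So in NIH3T3 GSDMD and LLC MLKL cells the effects of drug and pore cannot be told apart. In parental NIH3T3 cells with AP20187, 1 of 8 passed, against 0.304% of all genes (0.0174% higher and 0.287% lower): Rgs16 had 79.7 and 79.4 TPM with AP20187, against 97.7 and 89.1 TPM untreated (-0.23, limma, adjusted p = 0.00333). That value gave -0.16 (adjusted p = 0.108) without untreated replicate 1 and -0.22 (adjusted p = 0.0598) without AP20187 replicate 2. The AP20187 response was higher in MLKL than in parental cells for 5 of 8 genes, Rcan1 (3.60), Rgs16 (4.44), Nfil3 (0.82), Gem (0.73) and Crem (0.37), against 20.5% of all genes (12.4% higher and 8.1% lower, or 10.9% and 11.7% after median centring). Without a library, Gem gave an adjusted p of 0.0631 (parental untreated replicate 1), 0.079 (parental AP20187 replicate 2) and 0.0566 (MLKL untreated replicate 1), and Crem 0.0816 (parental AP20187 replicate 1), all from limma. In parental LLC cells with 4OHT, 0 of 6 tested genes passed limma's test and 0 had an unadjusted p under 0.05, against 0.927% of all genes passing (0.882% higher and 0.045% lower, or 0.603% and 0.162% after median centring).

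Over all 15 treatment comparisons, 111 of 120 gene and comparison pairs were tested, and none of these had a group mean under 1 TPM. Rcan1 was higher in 12 of 15, Nfil3 higher in 11 and lower in 1, Rgs16 higher in 12 and lower in 2, and Gem higher in 9 of 11. Crem was higher in 8 of 15 and lower in none. Sik1 was higher in 6 and lower in 4 of 15, Nfatc1 higher in 4 and lower in 1 of 14, and Rgs2 higher in 3 and lower in 4 of 11. So Rcan1, Gem and Crem passed in 1 direction only, and the other 5 genes passed in both. Each call of Rgs16, Nfil3, Sik1 and Nfatc1 as lower was lost in at least 1 alternative fit. In 8 of the comparisons the median of all genes moved by more than 0.1 on the log2 scale: -0.19 with siCTR, -0.14 with siPKC, -0.22 in noko, -0.19 in p65ko, -0.29 and -0.25 with GSDMD in NIH3T3 and LLC, -0.16 in HT29 and -0.37 in BxPC3. In these comparisons the value after median centring is given below where centring changed whether a gene passed. Among small changes that passed either way, the centred values were 0.43 for Crem with siCTR, 0.47 for Crem in noko and -0.23 for Rgs2 with siCTR.

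**Figure D3:**
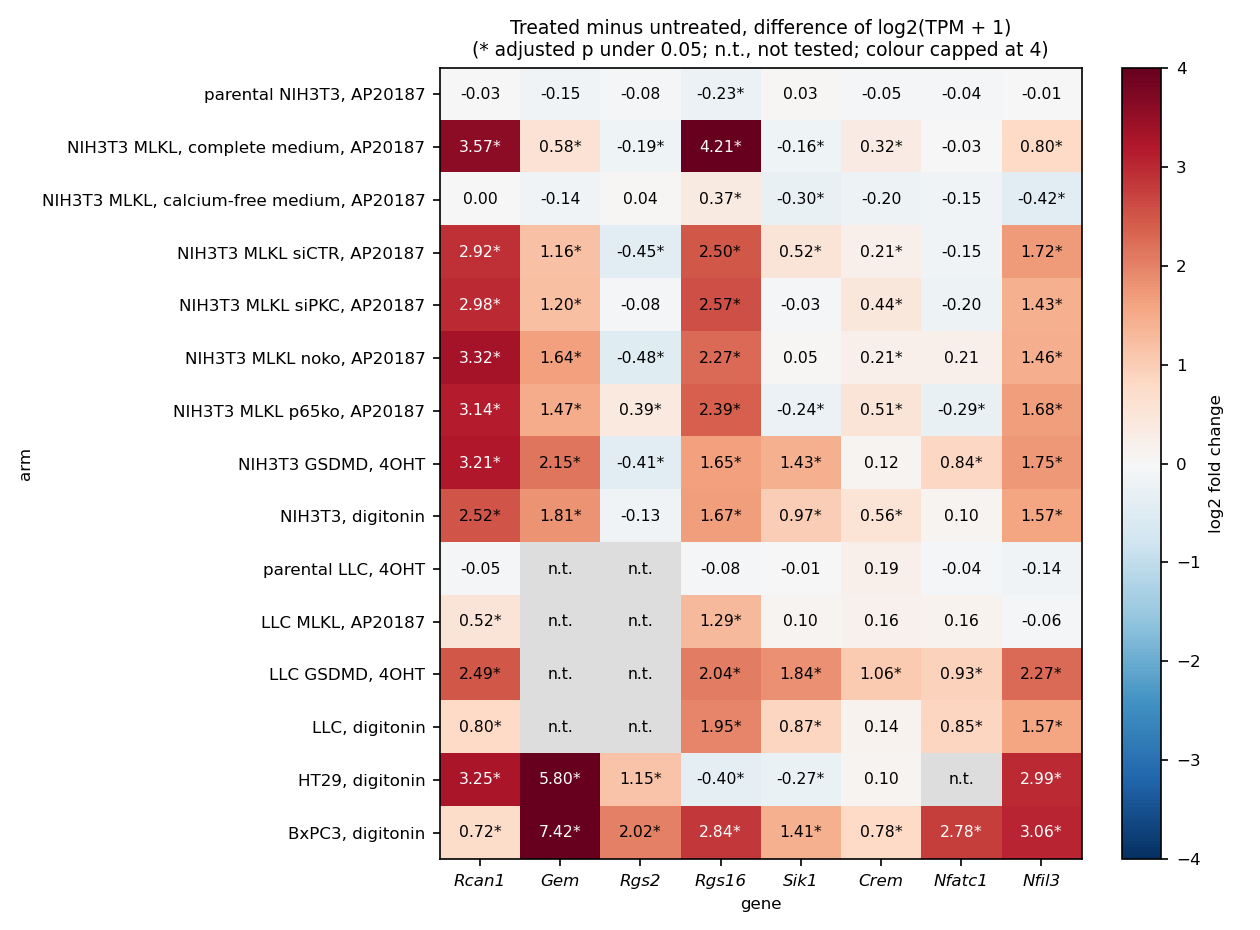
Difference of log2(TPM + 1), treated minus untreated, of the 8 genes (columns, capitals in human) in the 15 treatments (1 in each line of the plot); a star marks an adjusted p under 0.05 and n.t. a gene not tested. Rcan1 lies between 2.52 and 3.57 in all NIH3T3 treatments that open the membrane in calcium-containing medium, and Rgs2 has both signs.

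In NIH3T3 cells Rcan1 also rose with GSDMD and with digitonin. With GSDMD and 4OHT it had 167 and 170 TPM, against 17.2 and 17.5 TPM untreated (3.21, limma, adjusted p = 5.32e-21). With digitonin it had 115 and 114 TPM, against 18.2 and 20.2 TPM untreated (2.52, limma, adjusted p = 3.8e-19). Dose and time differ between these treatments and MLKL, so the values stand side by side without a comparison. With GSDMD 7 of 8 passed, 6 higher and Rgs2 lower, against 78.5% of all genes (19.9% higher and 58.6% lower, or 35.6% and 35.9% after median centring). With digitonin 6 of 8 passed, all higher, against 73.6% of all genes (39.4% higher and 34.2% lower, or 31.9% and 45.4% after median centring).

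Sik1 and Nfatc1 rose with GSDMD. Sik1 had 18.8 and 19.6 TPM with 4OHT, against 6.90 and 6.16 TPM untreated (1.43, limma, adjusted p = 7.41e-15), and with digitonin 15.7 and 14.5 TPM, against 7.08 and 7.36 TPM untreated (0.97, adjusted p = 4.4e-12). Nfatc1 had 12.8 and 12.4 TPM with 4OHT in GSDMD cells, against 6.30 and 6.86 TPM untreated (0.84, limma, adjusted p = 4.88e-07), while with digitonin its groups overlapped, at 2.35 and 2.54 TPM against 2.04 and 2.38 TPM untreated. Gem had 24.5 and 24.9 TPM with 4OHT, against 4.89 and 4.67 TPM untreated, and 22.0 and 19.7 TPM with digitonin, against 5.26 and 5.21 TPM untreated. Nfil3 reached its highest mouse level in GSDMD cells, 124 and 122 TPM with 4OHT against 36.9 and 35.1 TPM untreated (1.75, limma, adjusted p = 1.41e-16). Rgs2 had 48.6 and 45.6 TPM with 4OHT, against 60.1 and 65.7 TPM untreated; it passed as lower (-0.41, limma, adjusted p = 2.85e-06), but gave -0.12 (adjusted p = 0.0738) after median centring. With digitonin Rgs2 had 71.1 and 77.8 TPM, against 78.9 and 84.4 TPM untreated, which missed the threshold (-0.13, limma, adjusted p = 0.0539) and passed it without untreated replicate 1 (-0.18, adjusted p = 0.0355), without digitonin replicate 2 (-0.20, adjusted p = 0.0202) and after median centring (-0.27, adjusted p = 0.000363). Crem had 9.62 and 9.32 TPM with digitonin, against 6.46 and 5.74 TPM untreated (0.56, limma, adjusted p = 1.05e-06), and with GSDMD it overlapped between groups (0.12, adjusted p = 0.155), although it passed after median centring (0.41, adjusted p = 6.97e-05) and without 4OHT replicate 2 (0.20, adjusted p = 0.0444).

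Among the NIH3T3 MLKL groups in complete medium, the untreated level of Rgs16 varied more than its treated level. In the 5 NIH3T3 MLKL groups in complete medium its mean was between 510 and 903.5 TPM with AP20187, a 1.77-fold range, and between 37.1 and 159 TPM untreated, a 4.29-fold range. The ratio of means ran between 4.84 in noko and 19.0 in cells without siRNA or knockout. Rcan1 was steadier at rest, between 18.5 and 25.2 TPM untreated and between 165 and 260 TPM with AP20187. Over all 9 untreated NIH3T3 groups Rgs16 varied 6.54-fold, Gem 5.04-fold and Rcan1 1.45-fold. Outside complete-medium MLKL cells, mean Rgs16 with AP20187 was as low as 65.3 TPM in calcium-free MLKL cells and 79.6 TPM in parental cells.

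The response of Rgs2 differed between p65ko and noko cells. Rgs2 had 68.8 and 72.0 TPM with AP20187 in p65ko, against 54.8 and 52.0 TPM untreated, and 43.6 and 44.2 TPM with AP20187 in noko, against 59.5 and 63.8 TPM untreated. Both AP20187 libraries of p65ko lay above the untreated ones (0.39, limma, adjusted p = 1.33e-05) and both of noko lay below them (-0.48, adjusted p = 7.14e-07), and the responses differed by 0.87 ± 0.085 (adjusted p = 1.13e-06). After median centring the values were 0.62 in p65ko and -0.22 in noko, and their difference 0.84. It was the 1 member of 8 to pass in that comparison, against 4.11% of all genes (2.35% higher and 1.76% lower, or 1.81% and 2.78% after median centring). Sik1 missed the threshold (-0.29, limma, adjusted p = 0.0524) and passed without p65ko AP20187 replicate 1 (-0.36, adjusted p = 0.0314) and after median centring (-0.32, adjusted p = 0.0252).

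In p65ko 8 of 8 genes passed, 6 higher and 2 lower, against 59.4% of all genes (9.01% higher and 50.4% lower, or 26.7% and 17.1% after median centring). In noko 6 of 8 passed, 5 higher and Rgs2 lower, against 66.1% (10.6% higher and 55.6% lower, or 30.4% and 21.1% after median centring). Rcan1 had 235 and 224 TPM with AP20187 in p65ko, against 24.6 and 25.8 TPM untreated, and 193 and 195 TPM with AP20187 in noko, against 19.4 and 17.7 TPM untreated, and its responses did not pass as different (-0.18, limma, adjusted p = 0.272). Gem had 44.0 and 43.2 TPM with AP20187 in p65ko, against 14.5 and 15.7 TPM untreated, and 29.1 TPM in both AP20187 libraries of noko, against 8.85 and 8.52 TPM untreated. The falls of Sik1 (-0.24) and Nfatc1 (-0.29) in p65ko became -0.02 and -0.06 after median centring, with limma adjusted p of 0.833 and 0.70, and Nfatc1 also lost its call without p65ko untreated replicate 1 (-0.27, adjusted p = 0.111), untreated replicate 2 (-0.31, adjusted p = 0.0652) and AP20187 replicate 2 (-0.17, adjusted p = 0.281). The rise of Crem in noko (0.21, limma, adjusted p = 0.0165) gave adjusted p of 0.0602, 0.0577 and 0.0748 without untreated replicate 1, untreated replicate 2 and AP20187 replicate 1, and Sik1 and Nfatc1 in noko passed as higher after median centring (0.31 and 0.47). Before treatment all 8 genes differed between p65ko and noko, 4 higher and 4 lower, against 47% of all genes (31.8% higher and 15.2% lower, or 20.1% and 23.2% after median centring), with Crem lowest in p65ko (3.05 ± 0.39 TPM in p65ko and 5.87 ± 0.0074 TPM in noko, SD, n = 2 each). Of these, Rgs2 (-0.20) gave limma adjusted p of 0.109 without noko untreated replicate 2 and 0.0893 without p65ko untreated replicate 2.

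With siPKC the response of Sik1 was lower than with siCTR. Of the 5 NIH3T3 MLKL treatments in complete medium, only siCTR had Sik1 passing as higher, and after median centring noko did too. The log2 fold change of Sik1 was -0.16 in cells without siRNA or knockout, 0.05 in noko and -0.24 in p65ko. After median centring these were -0.17, 0.31 and -0.02. Sik1 had 8.98 TPM in the single siPKC library with AP20187, against 9.36 and 9.09 TPM untreated, and with siCTR 11.7 and 11.8 TPM with AP20187, against 7.73 and 8.04 TPM untreated. It rose with siCTR (0.52, limma, adjusted p = 1.75e-07) and not with siPKC (-0.03, adjusted p = 0.723), a difference of -0.56 ± 0.093 (adjusted p = 0.00075). Rgs2 had 65.5 TPM with AP20187 in siPKC, against 66.8 and 71.9 TPM untreated, and with siCTR 42.1 and 40.7 TPM with AP20187, against 58.7 and 54.9 TPM untreated, so that it fell with siCTR (-0.45, limma, adjusted p = 1.82e-06). The responses of Rgs2 differed by 0.37 ± 0.095 (limma, adjusted p = 0.0214), or by 0.30 (adjusted p = 0.0522) after median centring, and its adjusted p was 0.0662, 0.0684 and 0.0881 without siCTR untreated replicate 1, siCTR AP20187 replicate 2 and siPKC untreated replicate 1. In all, 2 of 8 passed against 8.43% of all genes (5.06% higher and 3.36% lower, or 2.68% and 6.5% after median centring), and 0 of 8 passed limma's test when only these libraries entered the fit. The single treated siPKC library is taken to vary like the other groups.

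**Figure D4:**
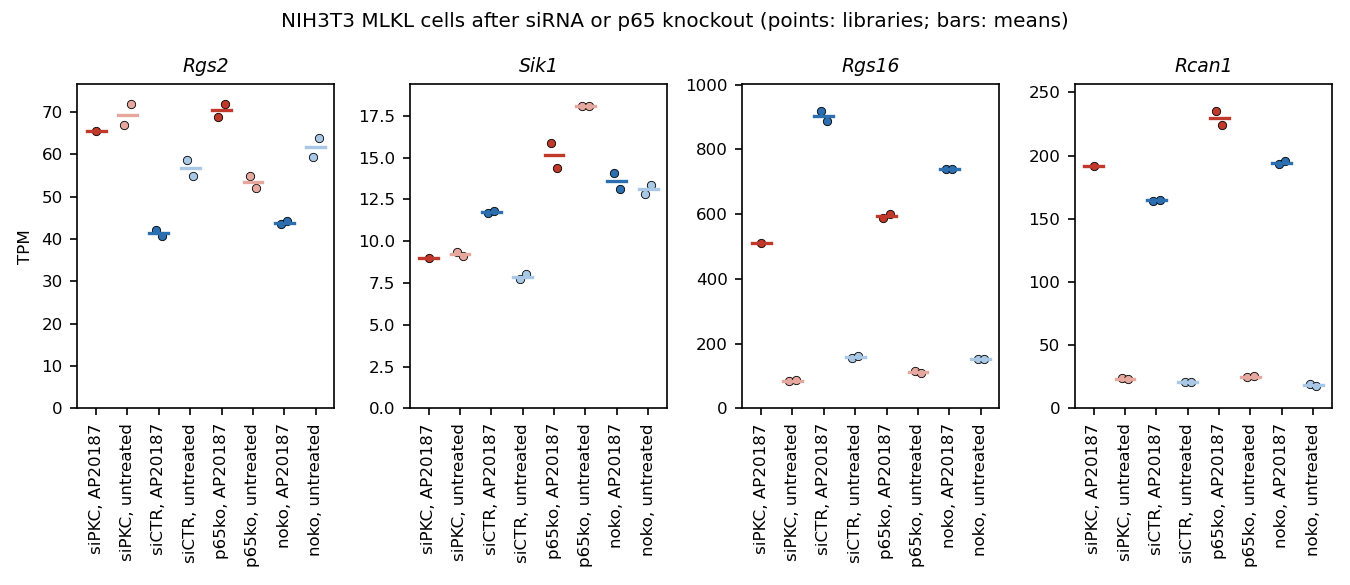
TPM of Rgs2, Sik1, Rgs16 and Rcan1 (y axis, linear from 0) in NIH3T3 MLKL cells with siPKC, siCTR, p65ko or noko, with AP20187 or untreated; points are libraries and bars are means. Rgs2 is higher with AP20187 in p65ko (68.8 and 72.0 TPM) and lower with AP20187 in noko (43.6 and 44.2 TPM) than in the untreated libraries.

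Rcan1, Gem, Rgs16, Crem and Nfil3 rose under both siRNAs. With siPKC 5 of 8 passed, all higher, against 48.2% of all genes (10.6% higher and 37.6% lower, or 21.8% and 17.2% after median centring), and with siCTR 7 of 8 passed, 6 higher and Rgs2 lower, against 65.6% (13.8% higher and 51.8% lower, or 30.8% and 23.5% after median centring). Rcan1 had 192 TPM with AP20187 in siPKC, against 23.9 and 23.2 TPM untreated, and 164 and 165 TPM with AP20187 in siCTR, against 21.0 and 21.0 TPM untreated. Rgs16 had 510 TPM with AP20187 in siPKC, against 83.4 and 87.1 TPM untreated, and 920 and 887 TPM with AP20187 in siCTR, against 157 and 161 TPM untreated. Treated libraries lay above untreated ones under both siRNAs, and the log2 changes did not pass as different (Rcan1 0.06, limma, adjusted p = 0.728, and Rgs16 0.07, adjusted p = 0.49). Nfil3 missed the threshold for a difference (-0.28, limma, adjusted p = 0.0541) and passed after median centring (-0.35, adjusted p = 0.0229) and without siCTR untreated replicate 2, siCTR AP20187 replicate 1 or siPKC untreated replicate 2 (adjusted p = 0.0308, 0.0432 and 0.0398). The rise of Crem with siCTR (0.21) gave limma adjusted p of 0.135 without untreated replicate 2 and 0.211 without AP20187 replicate 1, and Nfatc1, not passed with siCTR, passed as lower without untreated replicate 1 (-0.36, adjusted p = 0.00822). Before treatment 7 of 8 differed between siPKC and siCTR, against 45.6% of all genes, with Rgs16 at 85.2 ± 2.7 TPM in siPKC and 159 ± 3.2 TPM in siCTR (SD, n = 2 each, -0.89, limma, adjusted p = 3.84e-14), and 4 of 8 passed without siCTR untreated replicate 1. The small differences of Rcan1 (0.16), Sik1 (0.20) and Crem (-0.21) rested on single libraries: Rcan1 lost its call without any one of the 4 (limma, adjusted p between 0.0511 and 0.14), Sik1 without siCTR replicate 1 (0.0618) or siPKC replicate 1 (0.0562), and Crem without siCTR replicate 1 (0.184) or siPKC replicate 2 (0.142), while Gem passed as lower without siPKC replicate 1 (-0.41, 0.0494).

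LLC cells lacked measurable Gem and Rgs2, and MLKL moved few of the rest. Gem was at or under 0.0457 TPM and Rgs2 at or under 0.147 TPM in all LLC libraries, mostly listed at 0, and neither was tested. With MLKL 2 of 6 passed, both higher, against 7.73% of all genes (5.56% higher and 2.17% lower). Rcan1 had 24.9 and 23.5 TPM with AP20187, against 16.5 and 16.6 TPM untreated (0.52, limma, adjusted p = 0.000133), and Rgs16 had 28.8 and 27.6 TPM with AP20187, against 10.8 and 11.1 TPM untreated (1.29, adjusted p = 4.13e-05). The titles give both treated libraries of this group the same replicate number, and 1 of them shortens the construct name.

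With GSDMD all 6 tested genes rose in LLC cells, against 81.9% of all genes (27.9% higher and 54% lower, or 35.9% and 44.6% after median centring), and all 6 rose more than in parental LLC cells with 4OHT, against 71.9% (22.5% higher and 49.4% lower, or 31.6% and 37.4% after median centring). Rcan1 had 67.3 and 66.0 TPM with 4OHT, against 11.4 and 10.7 TPM untreated (2.49, limma, adjusted p = 9.33e-12). Nfil3 had 91.4 and 89.3 TPM with 4OHT, against 17.93 and 18.02 TPM untreated (2.27, adjusted p = 1.47e-10 by limma). Sik1 had 25.2 TPM in both libraries with 4OHT, against 6.57 and 6.07 TPM untreated, and Nfatc1 had 16.9 and 16.0 TPM with 4OHT, against 8.41 and 7.92 TPM untreated. None of these groups overlapped. With digitonin 5 of 6 rose, against 52.5% of all genes (20.3% higher): Rcan1 had 17.4 and 19.6 TPM with digitonin, against 9.97 and 10.5 TPM untreated, Rgs16 10.2 and 9.65 TPM with digitonin, against 1.40 and 2.32 TPM untreated, and Nfatc1 20.5 and 22.2 TPM with digitonin, against 11.5 and 11.3 TPM untreated. Crem had 4.98 and 4.89 TPM with digitonin, against 4.15 and 4.66 TPM untreated, and did not pass (0.14, limma, adjusted p = 0.395).

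In the human lines GEM was the gene of the 8 that digitonin raised most. It had 562 and 599 TPM with digitonin in BxPC3, against 2.42 and 2.35 TPM untreated, a ratio of means of 244, and 157 and 148 TPM with digitonin in HT29, against 1.76 and 1.73 TPM untreated, a ratio of 87.3. Its log2 fold change ranked 8th among the rises in BxPC3 and 2nd in HT29. NFIL3 had 71.5 and 74.8 TPM with digitonin in BxPC3, against 8.32 and 7.45 TPM untreated, and 40.9 and 42.8 TPM with digitonin in HT29, against 4.80 and 4.04 TPM untreated. RGS2 rose in both lines: it had 268 and 286 TPM with digitonin in BxPC3, against 68.2 and 66.7 TPM untreated, and 355 and 344 TPM with digitonin in HT29, against 155 and 160 TPM untreated. The mouse and human values come from separate tables, and dose and time differ, so no test sets them against each other.

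In BxPC3 8 of 8 rose, against 80.4% of all genes (23.5% higher and 56.8% lower, or 41.8% and 36% after median centring). In HT29 6 of 7 passed, 4 higher and 2 lower, against 60.6% (16.6% higher and 44% lower, or 29.7% and 26.6% after median centring). The 2 lower genes were RGS16, with 2.69 and 3.12 TPM with digitonin, against 4.64 and 3.70 TPM untreated, and SIK1, with 5.72 and 6.33 TPM with digitonin, against 7.77 and 7.20 TPM untreated. Both lost the call after median centring (RGS16 -0.21, limma, adjusted p = 0.139, and SIK1 -0.08, adjusted p = 0.235), and RGS16 also without digitonin replicate 1 (-0.32, adjusted p = 0.0823) and untreated replicate 1 (-0.27, adjusted p = 0.0732). CREM did not pass in HT29 (0.10, limma, adjusted p = 0.379), but passed as higher after median centring (0.29, adjusted p = 0.0448). NFATC1 was at or under 0.0581 TPM in HT29 and was not tested there.

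The response to digitonin differed between the lines for most of the 8 genes. The digitonin response was higher in BxPC3 than in HT29 for RGS16 (3.24), SIK1 (1.68), GEM (1.62), RGS2 (0.88) and CREM (0.68), lower for RCAN1 (-2.53), and not passed as different for NFIL3 (0.08, limma, adjusted p = 0.597). So 6 of the 7 genes tested in both lines passed limma's test of the difference, 5 higher and 1 lower, against 64.1% of all genes (20.6% higher and 43.5% lower, or 30.4% and 29.3% after median centring). Those shares over all genes also cover genes kept by the filter through a single line. RGS16 had 31.7 and 31.8 TPM with digitonin in BxPC3, against 3.79 and 3.35 TPM untreated. SIK1 had 183 and 187 TPM with digitonin in BxPC3, against 68.8 and 69.4 TPM untreated. NFATC1 had 29.4 and 30.2 TPM with digitonin in BxPC3, against 3.32 and 3.67 TPM untreated; it entered the fit of the difference (2.76) only through BxPC3, since it was near 0 in HT29, and is not counted. RCAN1 was the exception, with 16.2 and 14.2 TPM with digitonin in BxPC3, against 8.43 and 9.19 TPM untreated, and 49.2 and 46.3 TPM with digitonin in HT29, against 4.43 and 3.83 TPM untreated.

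**Figure D5:**
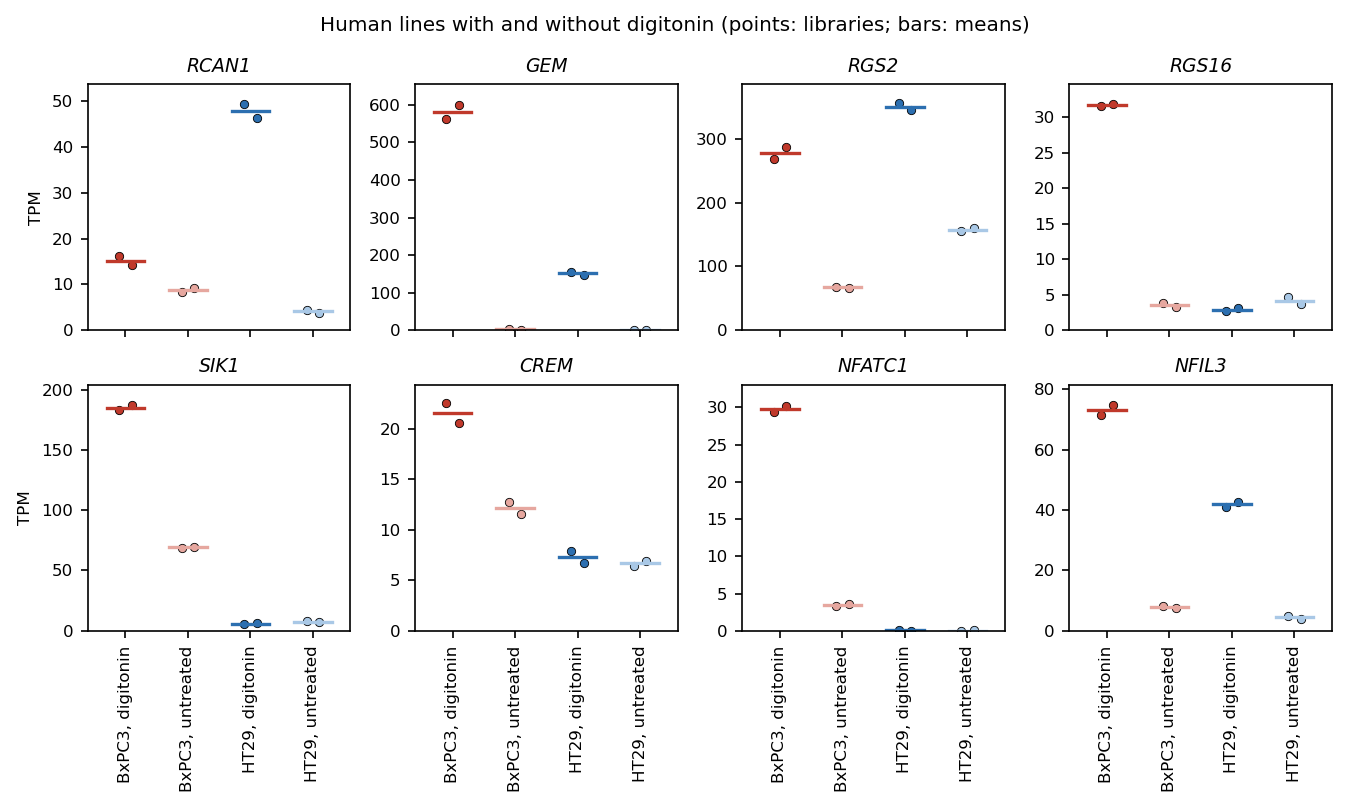
TPM of the 8 human genes (y axis, linear from 0) in BxPC3 and HT29 cells with digitonin or untreated; points are libraries and bars are means. RGS16, SIK1 and NFATC1 are high with digitonin in BxPC3 and not in HT29, RCAN1 is highest with digitonin in HT29, and GEM is at 562 and 599 TPM in BxPC3.

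Of the further CREB and NFAT target genes, 16 of 18 tested were higher and 1 lower with digitonin in BxPC3 (median log2 fold change 4.38), and 15 of 16 were higher and 1 lower in HT29 (median 2.04), against medians of -0.37 and -0.16 over all genes tested. The largest in BxPC3 were NR4A1 (2168 TPM with digitonin and 4.64 TPM untreated, log2 fold change 8.59) and FOSB (5375 TPM with digitonin and 14.4 TPM untreated, 8.45), nuclear receptor and AP-1 genes. The HT29 count includes IRS2 (7.46 TPM with digitonin and 0.271 TPM untreated) and PTGS2 (3.33 and 0.77 TPM), with untreated means under 1 TPM. A gene kept by the filter only through its treated libraries could pass only as higher, so the counts of target genes are description only. Among the relatives of the 8 genes, RRAD, which like GEM encodes an RGK GTPase, had a mean of 120 TPM with digitonin and 0.764 TPM untreated in BxPC3, where it passed the filter on low values only through the digitonin libraries. In BxPC3 5 of 14 calcineurin and NFAT genes were higher and 5 lower, 4 of 15 CREB pathway genes higher and 7 lower, and 8 of 19 relatives higher and 7 lower, against 23.5% of all genes higher and 56.8% lower. In HT29 5 of 14 calcineurin and NFAT genes were higher and 3 lower, 5 of 15 CREB pathway genes higher and 6 lower, and 3 of 15 relatives higher and 4 lower, against 16.6% of all genes higher and 44% lower. NFATC2 was higher in both lines, with means of 7.29 TPM with digitonin and 0.540 TPM untreated in BxPC3 (kept by the filter there only through the digitonin libraries) and 9.72 TPM with digitonin and 1.67 TPM untreated in HT29.

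Across the 13 mouse treatments the 6 genes tested in all of them were alike to different degrees, described by Pearson's r over their log2 fold changes, which share lines and libraries. Among the 15 pairs r was highest for Sik1 with Nfatc1 (0.85), Rcan1 with Rgs16 (0.843) and Rcan1 with Nfil3 (0.776). It was 0.69 for Crem with Nfil3, 0.646 for Sik1 with Nfil3, 0.615 for Rgs16 with Nfil3, 0.527 for Sik1 with Crem and 0.519 for Rcan1 with Crem. It was lowest for Rcan1 with Nfatc1 (0.0539), Rgs16 with Sik1 (0.0715) and Rgs16 with Nfatc1 (0.0377). Of 3069 other genes, those most like Rcan1 were Clcf1 and Spry2 (0.955 each), those most like Rgs16 were Ier2 (0.95) and Egr1 (0.948), and those most like Sik1 were Ets2 (0.983) and Zscan25 (0.965). Nfil3 was most like Klf4 (0.954) and Klf16 (0.952), Crem like Ccdc117 (0.913) and Pan3 (0.899), and Nfatc1 like Agpat9 (0.896) and Ccnl2 (0.875).

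The order of untreated levels also differed by line. In untreated NIH3T3 groups the means ranged, from high to low, between 37.1 and 243 TPM for Rgs16, 17.7 and 81.7 for Rgs2, 9.07 and 36.0 for Nfil3, 17.3 and 25.2 for Rcan1, 6.53 and 18.1 for Sik1, 2.99 and 15.1 for Gem, 3.05 and 6.88 for Crem, and 1.84 and 6.58 for Nfatc1. The lower ends for Rgs2, Nfil3 and Nfatc1 come from MLKL cells in calcium-free medium. In the other untreated NIH3T3 groups their lowest means were 32.4, 12.2 and 1.89 TPM. In untreated LLC groups the means were 16.2 to 18.6 TPM for Nfil3, 10.2 to 16.6 TPM for Rcan1, 6.99 to 11.4 TPM for Nfatc1 and 1.86 to 10.9 TPM for Rgs16, and each of these ranges overlaps with the next. In untreated BxPC3 SIK1 and RGS2 were highest, at 69.1 ± 0.45 and 67.4 ± 1.0 TPM, ahead of CREM at 12.1 ± 0.88 TPM. In untreated HT29 RGS2 led at 157 ± 3.3 TPM, followed by SIK1 (7.48 ± 0.40 TPM) and CREM (6.68 ± 0.34 TPM; SD, n = 2 throughout).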

How the data were processed

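RNA of 59 libraries was described by TPM per gene, which the authors deposited; per the submitters' processing notes, Salmon and the builds mm10 and hg19 were used, while the Salmon version is not given in the sources used here, nor is how transcripts were summed to genes. Sequencing depth is lost in TPM (column totals of the mouse libraries lie between 999910 and 999989), so no counting interval is given. Values were taken as log2(TPM + 1), on which low genes change less than their true ratio. Each line (NIH3T3, LLC, and both human lines together) was fitted in 1 model over all its libraries with limma 3.58.1 (trend, R 4.3.3), with genes kept at 1 TPM or more in at least 2 libraries of the comparison and Benjamini-Hochberg adjustment over all genes tested; the threshold was an adjusted p of 0.05. The script was tested on simulated data. The 25 comparisons are 15 treatments, 6 differences of responses and 4 level comparisons, of which the difference between BxPC3 and HT29 was added after seeing the data.

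The members and lists were chosen with earlier results of these data known. All 8 members are named throughout, together with the largest changes in each list and the 2 genes most like each member by Pearson's r over the 13 mouse treatments, among genes with an absolute log2 fold change of 1 or more in at least 1 of them. Promoter windows come from RefSeq (GRCm38.p6), and motifs were searched as letters on both strands; gene starts were read from GENCODE on mm10. Figures were drawn with Python 3.11.15, matplotlib 3.10.9, pandas 2.3.3 and numpy 2.4.6. Alternatives were a pseudocount of 0.1, no filter or a filter at 5 TPM, quantile normalization, median centring, only the libraries of a comparison, the replicate number as a block, and leaving out each library. LLC MLKL libraries with AP20187 carry the same replicate number in their titles, were numbered in accession order and were left out of the block.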

Additional observations from a re-analysis of the deposited data

Results flagged for a closer look

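The following responses passed limma's test of the difference between 2 settings of the same treatment (log2 scale, Benjamini-Hochberg adjusted p under 0.05). Calcium-free minus complete medium, the AP20187 response differed by -3.57 for Rcan1, -3.84 for Rgs16, -1.22 for Nfil3, -0.72 for Gem and -0.52 for Crem. The AP20187 response differed between siPKC and siCTR by -0.56 for Sik1 and 0.37 for Rgs2. The treated siPKC group is 1 library, 0 of 8 genes passed with only these libraries in the fit, and Rgs2 gave 0.30 (limma, adjusted p = 0.0522) after median centring and lost its call without siCTR untreated replicate 1, siCTR AP20187 replicate 2 or siPKC untreated replicate 1 (adjusted p = 0.0662, 0.0684 and 0.0881). Between p65ko and noko the AP20187 response differed by 0.87 for Rgs2. The digitonin response differed between BxPC3 and HT29 by 3.24 for RGS16, 1.68 for SIK1, 1.62 for GEM, 0.88 for RGS2, 0.68 for CREM and -2.53 for RCAN1. The value for NFATC1 was 2.76, but NFATC1 was near 0 in HT29 and was kept by the filter only through BxPC3.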

How the results depend on the processing

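Over 189 values of the 8 genes and 2197 alternatives, 0 called values changed sign, 78 lost the threshold, 32 gained it and 2087 stayed on their side of it; 48 values that were not called had the other sign. Counts of genes passed depended on single settings as follows. With only the libraries of the comparison in the fit, 0 of 8 passed in parental NIH3T3 cells, 1 in calcium-free medium, 0 for siPKC minus siCTR, 4 for untreated calcium-free against complete medium and 4 for untreated siPKC against siCTR. For p65ko minus noko 2 passed with a 5 TPM filter, 2 with median centring and 4 with quantile normalization; for untreated calcium-free against complete medium 4 passed with quantile normalization and 4 with median centring. Leaving out 1 library gave 0 to 1 in parental NIH3T3 cells, 1 to 3 for siPKC minus siCTR, 1 to 2 for p65ko minus noko, 4 to 7 for untreated calcium-free against complete medium and 4 to 6 for untreated siPKC against siCTR. Counts over all genes moved by more than 1.5 times in several comparisons: in calcium-free medium 37 genes were higher with only its own libraries and 272 in the full fit, for siPKC minus siCTR 5 and 592, in noko 3557 with median centring and 1234 as deposited, and in p65ko 3206 and 1080. With the replicate number as a block, 7 of 8 passed in complete medium, 5 for calcium-free minus complete medium, and 0 of 183 calls changed; same-numbered libraries deviated together with r between -0.047 and 0.133 over 13 treatments, so the numbers do not show a pairing. The causes were not tested. With 2 libraries in a group, small changes of genes under 10 TPM are the least certain, and depth is unknown.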
